A study of Nematostella vectensis with 84 samples.

Results

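The cells compared here were KikGR-positive cells of the FoxL2>KikGR and SoxC>KikGR reporter lines of the starlet sea anemone Nematostella vectensis, described at the level of the authors' 45 fine cell clusters. They were chosen from the deposited cell table as the cells sorted in the gate named KikGR+ from dissociations treated with DMSO, and numbered 5729 of the 12352 cells of the series. The FoxL2 line gave 2278 cells from 5 dissociations and the SoxC line 3451 cells from 9 dissociations.

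Both groups were heterozygous for a stable transgene, were 6 to 8 weeks old adults and received 1% DMSO. Their reporter had been photoconverted 2, 4 or 7 days before sampling, and the tissue was the body wall with mesenteries, taken below the pharynx. Days 2, 4 and 7 held 1, 2 and 2 FoxL2 dissociations and 1, 3 and 5 SoxC dissociations. Single cells were sorted into the wells of plates and sequenced by MARS-seq, a method that barcodes the RNA of each well. The selected cells came from 41 libraries of 22 plates, with 1 or 2 libraries from each plate. FoxL2 dissociations 11, 15 and 17 had 3 libraries from 2 plates each. The number of animals in a dissociation and the number of insertions behind each line are not given in the sources used here.

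The reporter KikGR fluoresces green when newly made, and illumination converts it to red, so that green protein has been made since the illumination. FoxL2 encodes a transcription factor of the forkhead family and SoxC one of the Sox family. In Nematostella, SoxC is known as a gene of the progenitors of neurons, of cnidocytes (the stinging cells) and of gland cells. The body wall is built of an outer epidermis and an inner gastrodermis, with nerve cells and gland cells in both layers, and the mesenteries carry digestive gland cells and muscle. Reporter protein can outlast the activity of its driver, so a labelled cell need not express the driver gene when it is sorted.

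The replicate was the dissociation, which held 245 to 614 selected cells (median 365.5) from 41 libraries of 102 to 161 cells. A share is the percentage of a dissociation's selected cells that fall in a cluster. It describes how the sorted cells divided, not how many labelled cells an animal held. A cluster with no cell in the smallest dissociation may still hold a share of up to 1.22% there, and in the largest up to 0.489%, by counting error alone. Cluster names are the authors' annotation. They were not compared with marker genes, because expression values were not used here.

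The libraries of 1 demultiplexing pool, named SB34 in the deposited well lists, stood apart from the other libraries of the same dissociations. The pool's name says that it includes resequenced libraries. It held 9 of the 41 libraries and 1219 of the 5729 cells, from all 5 FoxL2 dissociations but from only 4 of the 9 SoxC dissociations. Cluster 30, annotated as Gastrodermis, the inner cell layer, consisted of SB34 cells alone. It took 49 of 665 SB34 cells and 0 of 1613 other cells in FoxL2, and 52 of 554 SB34 cells and 0 of 1437 other cells in the same 4 SoxC dissociations. In the whole series, 125 of its 125 cells came from that pool.

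Other clusters were low in the SB34 libraries. The chitinase secretory cluster 34, named for an enzyme that degrades chitin, had 0 of 665 SB34 cells and 17 of 1613 other cells in FoxL2, and 1 of 554 SB34 cells and 23 of 1437 other cells in SoxC. The unspecified secretory cluster 40 had 0 of 665 and 17 of 1613 cells in FoxL2, and 2 of 554 and 14 of 1437 cells in SoxC. These differences between libraries of 1 dissociation were seen after the data were examined and are given without a test. Results that rest on the pool are given with and without its libraries. Without them, all 14 dissociations remained, with 4510 cells and at least 155 cells each.

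**Figure D1:**
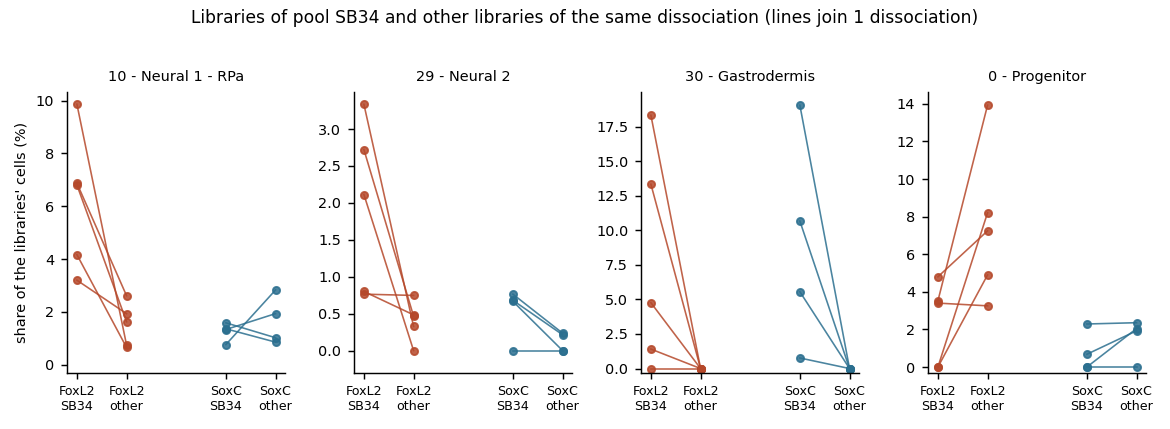
Share of the libraries' cells (%, vertical axis) in 4 clusters for the libraries of pool SB34 and the other libraries of the same dissociation, FoxL2 at left and SoxC at right in each panel. Each line joins the 2 values of 1 dissociation. Cluster 30 reached 18.3% in FoxL2 and 19.0% in SoxC in SB34 libraries and was at 0 in all others shown.

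The first comparison asked which fine cell types make up a different share of the cells labelled by each line. FoxL2-labelled cells held more epidermal cells, more progenitors and more cells of 7 neural clusters. SoxC-labelled cells held more mucous cells and more of the WFSa cluster of Neural 2. Of 45 clusters, 13 passed a two-sided exact permutation test of the mean share over 5 against 9 dissociations with Benjamini-Hochberg adjustment (adjusted p under 0.05), which is 28.9% of those tested. Of these, 9 clusters (20% of those tested) were higher and 4 (8.89%) were lower in FoxL2. In 5 clusters (11.1%) the ranges of the lines did not overlap, though those of clusters 13 and 29 did without the SB34 libraries. The smallest p that 2002 arrangements can give is 0.0004995, and 21 clusters (46.7%) were under 0.05 before adjustment. Of the 13 broad clusters 6 passed (46.2%), with 4 higher in FoxL2 (30.8%) and 2 lower (15.4%), and 8 (61.5%) were under 0.05 before adjustment. The 4 higher were Epidermis, Progenitor, Neural 0 and Neural 1, and the 2 lower were Neural 4 and the mucous cells.

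**Figure D2:**
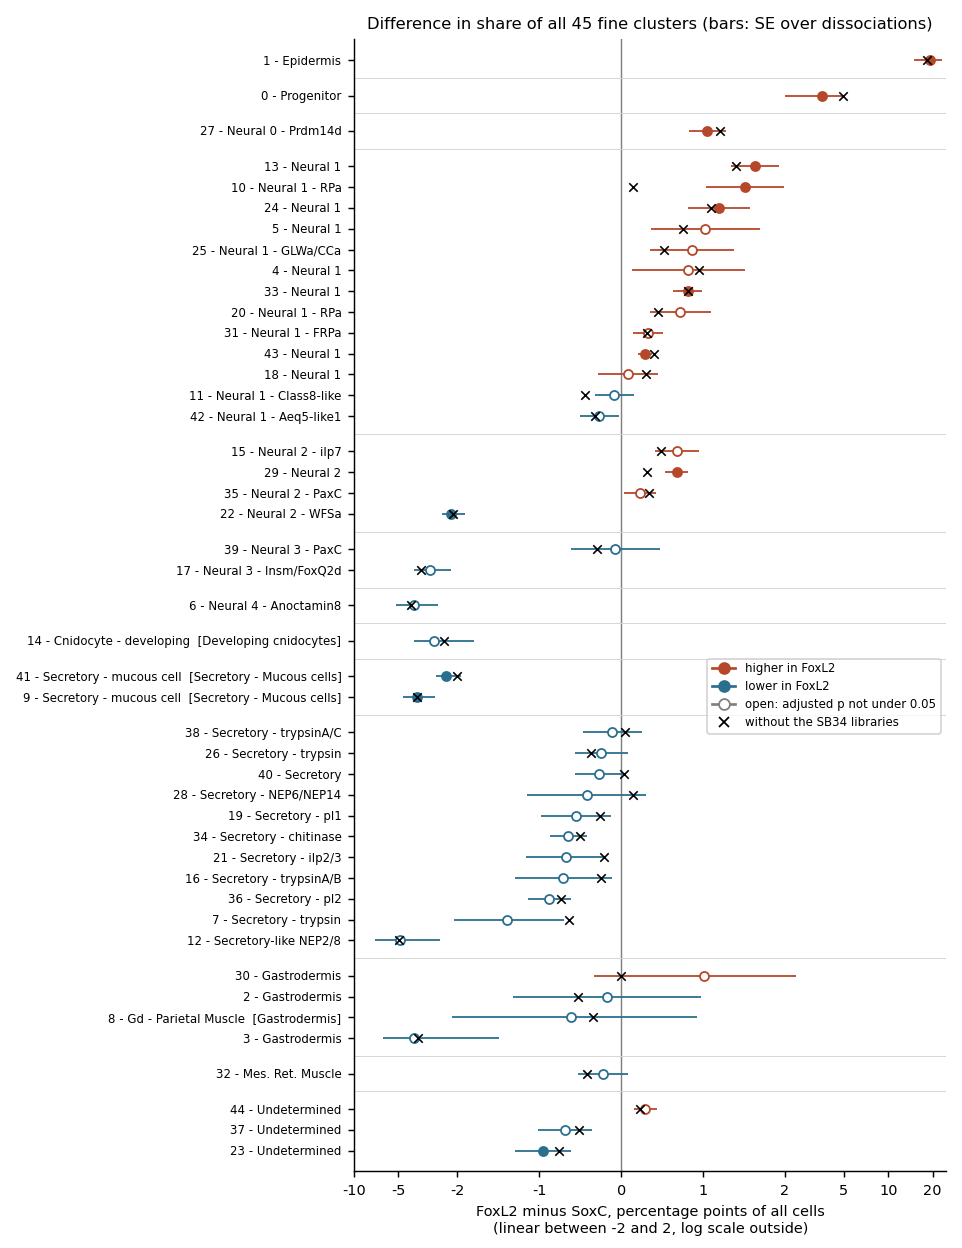
Difference in the share of all cells, FoxL2 minus SoxC (percentage points, horizontal axis, linear between -2 and 2 and logarithmic outside), for 45 fine clusters in rows grouped by broad cluster, with SE bars. Filled points passed the test, and crosses give the difference without the SB34 libraries. Of the 13 Neural 1 clusters, 11 lie above 0, and the RPa cluster 10 moves to near 0 without SB34.

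Epidermal cells, which form the outer layer of the body wall, showed the largest difference. The Epidermis cluster, the only fine cluster of its broad cluster, took 31.9%, 12.1%, 13.3%, 27.7% and 25.4% of the cells in FoxL2 dissociations 11, 14, 15, 16 and 17. In SoxC its lowest, median and highest shares were 0.647%, 1.32% and 10.4%. Every FoxL2 dissociation lay above every SoxC dissociation. The means were 22.1% ± 8.89 in FoxL2 and 2.94% ± 3.10 in SoxC (SD, n = 5 and 9), a difference of 19.1 ± 4.11 points (SE, exact permutation test, adjusted p = 0.00562). On each of the 3 days the ranges of the lines were apart. The highest SoxC value, in dissociation 6, stood away from the other 8.

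Progenitors, the undifferentiated cells of the annotation, took 6.33%, 11.2%, 5.51%, 3.29% and 3.52% in the 5 FoxL2 dissociations in the same order. In SoxC the lowest, median and highest shares were 0%, 2.32% and 5.03%. The ranges overlapped, with 3 of 5 FoxL2 values above the SoxC maximum. The means were 5.97% ± 3.20 in FoxL2 and 2.44% ± 1.62 in SoxC (SD, exact permutation test, adjusted p = 0.0356). The call was lost in 7 of 14 repeats that left out 1 dissociation, with adjusted p of up to 0.111. Without the SB34 libraries the difference was 4.97 points in place of 3.53, with means of 7.51% ± 4.08 in FoxL2 and 2.53% ± 1.57 in SoxC (SD, exact permutation test, adjusted p = 0.0169).

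Of the 9 clusters higher in FoxL2, 7 were neural, and 5 of those belonged to Neural 1, the largest neural group with 13 fine clusters. In all, 11 of the 13 Neural 1 clusters had a higher mean in FoxL2, with a median difference of 0.811 points. The 2 exceptions were Class8-like, with 1.01% in FoxL2 and 1.09% in SoxC, and Aeq5-like1, with 0.325% in FoxL2 and 0.591% in SoxC, and neither passed the test. Without the SB34 libraries the signs were above 0 in 11 of 13 again, and 4 passed. The whole broad cluster took 20.3% ± 5.78 in FoxL2 and 11.3% ± 3.07 in SoxC (SD), and 17.5% ± 5.52 in FoxL2 and 11.1% ± 2.76 in SoxC without SB34. The 13 shares add up to this broad share, so their signs are not separate results. As a part of Neural 1 cells, clusters 4, 5, 18, Class8-like and Aeq5-like1 had a lower mean in FoxL2 and the others a higher one. Among other broad clusters, the mean was higher in FoxL2 in 3 of 4 Neural 2, 1 of 4 Gastrodermis and 0 of 11 Secretory clusters.

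Cluster 13, a Neural 1 cluster with no further name, took 3.31%, 2.39%, 3.01%, 2.08% and 2.11% in FoxL2. Its lowest, median and highest SoxC shares were 0.324%, 0.993% and 1.64%, so the lines did not overlap. The means were 2.58% ± 0.553 in FoxL2 and 0.943% ± 0.464 in SoxC (SD, exact permutation test, adjusted p = 0.00562). Without the SB34 libraries cluster 13 passed as well (exact permutation test, adjusted p = 0.0150). Its ranges then overlapped at their edges, with a FoxL2 minimum of 1.49% and a SoxC maximum of 1.50%. Cluster 24, also an unnamed Neural 1 cluster, took 1.81%, 1.65%, 2.01%, 2.43% and 0.235% in FoxL2, against a SoxC range of 0% to 0.984% with a median of 0.336%. In 4 of 5 FoxL2 dissociations it was above the SoxC maximum, and dissociation 17, with 1 cell, lay below the SoxC median (exact permutation test, adjusted p = 0.0253). Its call was lost in 3 of 14 repeats that left out 1 dissociation.

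Cluster 33 of Neural 1 was rare in SoxC. It took 0.904%, 1.47%, 1.00%, 0.693% and 0.469% in FoxL2, where it had 21 cells in all. In SoxC it was found in 2 of 9 dissociations, with 3 cells in dissociation 1 and 2 cells in dissociation 8, a highest share of 0.489% and a median of 0%. The means were 0.908% ± 0.375 in FoxL2 and 0.0973% ± 0.195 in SoxC (SD, exact permutation test, adjusted p = 0.00642). Cluster 43, the smallest of the 5 by share, averaged 0.422% ± 0.143 in FoxL2 and 0.131% ± 0.164 in SoxC (SD, exact permutation test, adjusted p = 0.0363), from 10 cells in FoxL2 and 5 in SoxC. Its call was lost in 5 of 14 repeats that left out 1 dissociation.

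The Neural 1 cluster labelled RPa and numbered 10 passed only with the SB34 libraries included. It took 2.41%, 3.12%, 4.01%, 2.95% and 1.64% in FoxL2, and the lowest, median and highest SoxC shares were 0%, 1.16% and 2.45%. The means were 2.83% ± 0.877 in FoxL2 and 1.32% ± 0.787 in SoxC (SD, exact permutation test, adjusted p = 0.0327). In the SB34 libraries of the 5 FoxL2 dissociations its shares were 3.20%, 9.86%, 6.87%, 6.80% and 4.17%. In the other libraries of the same dissociations they were 1.93%, 0.746%, 2.61%, 1.63% and 0.654%. The SB34 value was the higher one in 5 of 5 FoxL2 dissociations and in 2 of 4 SoxC dissociations.

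The contrast was also present between libraries of a single plate. On the plate of FoxL2 dissociation 14 that had both kinds of library, cluster 10 had 14 of 142 cells in the SB34 library and 0 of 146 in the library without a well list. On the plate of FoxL2 dissociation 16 it had 10 of 147 and 3 of 150 cells. The 4 SoxC plates of this kind did not show it, with 1 or 2 cells of cluster 10 in each SB34 library and 1 to 7 in the other library of the plate. Without SB34 the means were 1.51% ± 0.825 in FoxL2 and 1.38% ± 0.908 in SoxC, a difference of 0.139 points (SD, exact permutation test, adjusted p = 0.877). Within pool SB34 alone the difference was 4.92 points (exact permutation test, adjusted p = 0.119), and within pool SB40 it was 0.00442 points. In 3 FoxL2 dissociations not listed with DMSO, whose libraries are in another pool, cluster 10 took 5.08%, 6.37% and 2.47% of the KikGR+ cells. With these added the difference was 2.19 points (exact permutation test, adjusted p = 0.00450). The second RPa cluster, number 20, did not pass, with 1.26% ± 0.786 in FoxL2 and 0.533% ± 0.355 in SoxC (SD, exact permutation test, adjusted p = 0.0742).

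The Prdm14d cluster, the only fine cluster of Neural 0, is named for a gene known in Nematostella as a marker of neural progenitors. It took 1.51%, 2.21%, 1.50%, 1.21% and 1.41% in FoxL2, and its lowest, median and highest SoxC shares were 0%, 0.327% and 1.31%. Of the FoxL2 values, 4 of 5 were above the SoxC maximum. The means were 1.57% ± 0.376 in FoxL2 and 0.515% ± 0.446 in SoxC (SD, exact permutation test, adjusted p = 0.00642).

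Neural 2 held 4 fine clusters, and they moved in both directions while the broad cluster did not pass, with 3.63% ± 0.780 in FoxL2 and 4.26% ± 1.26 in SoxC (SD, exact permutation test, adjusted p = 0.398). Cluster 29, unnamed beyond Neural 2, took 0.602%, 0.551%, 0.752%, 1.04% and 1.17% in FoxL2, against 0% in the lowest and median SoxC dissociations and 0.360% in the highest. The WFSa cluster 22 took 0.301%, 0.551%, 1.25%, 1.04% and 0.704% in FoxL2, against a lowest, median and highest SoxC share of 1.68%, 2.88% and 4.25%. With all libraries included the lines did not overlap in either cluster, cluster 29 being higher and WFSa lower in FoxL2. Cluster 29 averaged 0.824% ± 0.273 in FoxL2 and 0.149% ± 0.177 in SoxC, and WFSa averaged 0.770% ± 0.380 in FoxL2 and 2.98% ± 0.764 in SoxC (SD, exact permutation test, adjusted p = 0.00562 for each).

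Cluster 29 was also more frequent in the SB34 libraries, with 13 of 665 SB34 cells and 6 of 1613 other cells in FoxL2. Without SB34 its means were 0.404% ± 0.272 in FoxL2 and 0.0860% ± 0.132 in SoxC, a difference of 0.318 in place of 0.675 points (SD, exact permutation test, adjusted p = 0.0318). The lines then overlapped, with ranges of 0% to 0.746% in FoxL2 and 0% to 0.324% in SoxC. The WFSa difference was -2.14 points without SB34 and -2.21 with it. The other 2 clusters, ilp7 and PaxC, were not past the threshold. The ilp7 cluster averaged 1.39% ± 0.377 in FoxL2 and 0.709% ± 0.622 in SoxC (SD, exact permutation test, adjusted p = 0.110).

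Mucous cells, the gland cells that secrete mucus, were lower in FoxL2 in both of their fine clusters. Cluster 9 took 1.20%, 2.39%, 2.51%, 1.39% and 1.41% in FoxL2, and its lowest, median and highest SoxC shares were 2.45%, 4.70% and 9.19%. The ranges met at their edges, since FoxL2 dissociation 15 lay just above SoxC dissociation 3. The means were 1.78% ± 0.617 in FoxL2 and 5.53% ± 2.60 in SoxC (SD, exact permutation test, adjusted p = 0.0327). The call of cluster 9 was lost in 8 of 14 repeats that left out 1 dissociation, with adjusted p of up to 0.0699.

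The smaller mucous cluster 41 was rare in FoxL2. It had 1, 1, 0, 1 and 0 cells in the 5 FoxL2 dissociations, or 0.301%, 0.184%, 0%, 0.173% and 0%. Its lowest, median and highest SoxC shares were 0.977%, 2.59% and 5.22%, so the lines did not overlap. The means were 0.132% ± 0.130 in FoxL2 and 2.50% ± 1.23 in SoxC (SD, exact permutation test, adjusted p = 0.00642). Both mucous clusters passed without the SB34 libraries as well.

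Cluster 23, which the authors left undetermined, took 0.602%, 1.65%, 0.251%, 1.04% and 1.88% in FoxL2, with a lowest, median and highest SoxC share of 1.31%, 2.04% and 2.65%. The ranges overlapped. The means were 1.09% ± 0.686 in FoxL2 and 2.04% ± 0.448 in SoxC (SD, exact permutation test, adjusted p = 0.0327). It did not pass without the SB34 libraries, at 1.32% ± 0.929 in FoxL2 and 2.08% ± 0.487 in SoxC (SD, exact permutation test, adjusted p = 0.199).

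**Figure D3:**
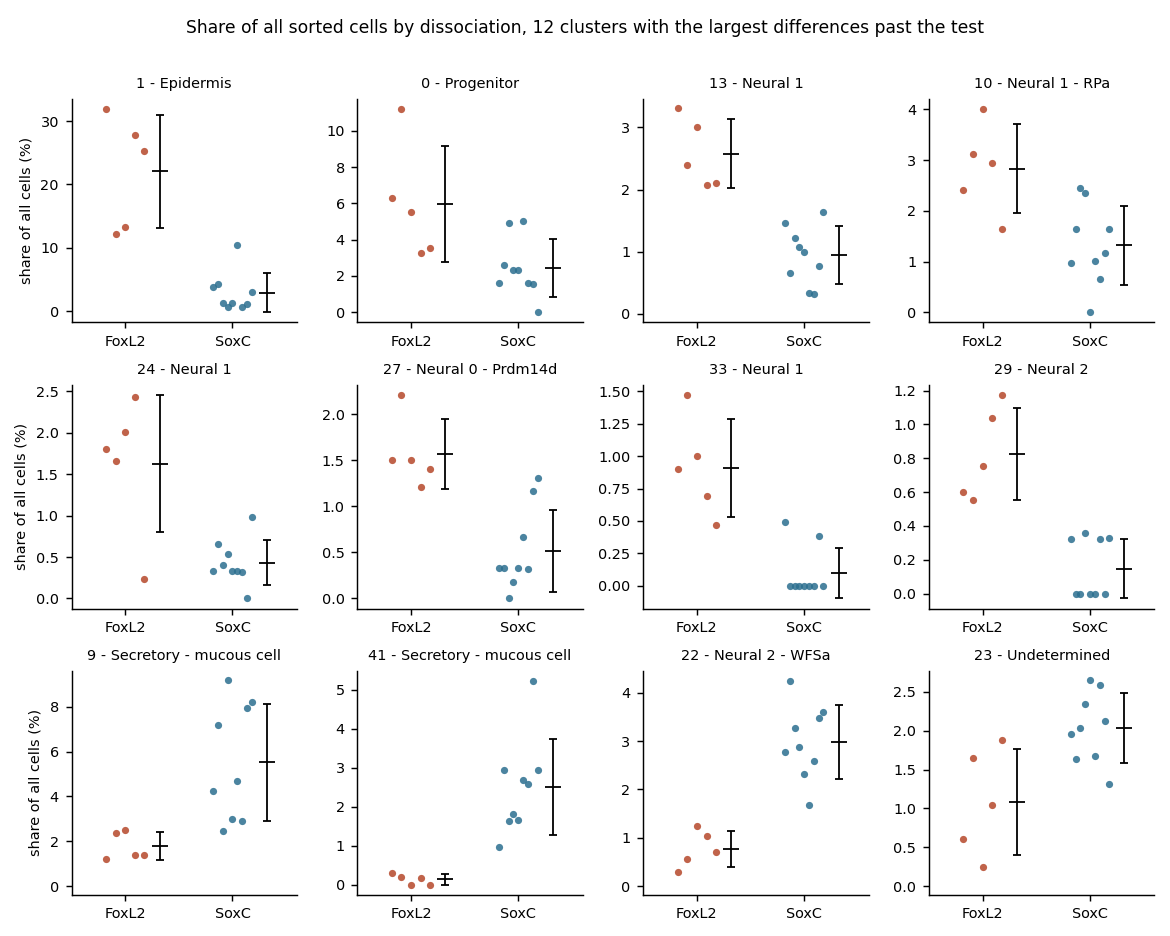
Share of all cells (%, vertical axis) of the 12 clusters with the largest differences among those past the test. Each point is 1 dissociation, FoxL2 at left (n = 5) and SoxC at right (n = 9) of each panel, with the mean and SD in black. Epidermis, clusters 13 and 29, WFSa and cluster 41 show no overlap of the lines. Without the SB34 libraries (not shown) the ranges of clusters 13 and 29 overlapped.

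The other secretory clusters, among them the trypsin clusters named for digestive proteases, gave 0 passes in 11 by this test, and 2 of them were under 0.05 before adjustment. All 11 had a lower mean in FoxL2, but 3 of them had a higher one without the SB34 libraries. Lower means were also found in 3 of 4 Gastrodermis and 2 of 13 Neural 1 clusters. With epidermal cells set aside, trypsin cluster 26 (0.0383 points) and trypsinA/C (0.189) had a higher mean in FoxL2. The other secretory clusters stayed lower, with trypsin cluster 7 at -0.449 points in place of -1.39 and NEP2/8 at -4.30 in place of -4.89. The largest differences among clusters not past the threshold were lower in FoxL2. The NEP2/8 secretory-like cluster averaged 2.29% ± 1.80 in FoxL2 and 7.18% ± 6.38 in SoxC, where it ran from 1.63% to 19.4% (SD, exact permutation test, adjusted p = 0.188). The Anoctamin8 cluster of Neural 4 averaged 3.03% ± 1.87 in FoxL2 and 6.96% ± 2.75 in SoxC (SD, exact permutation test, adjusted p = 0.0546), and it passed without SB34, at 2.69% ± 1.54 in FoxL2 and 6.79% ± 2.46 in SoxC (adjusted p = 0.0315). With epidermal cells set aside it did not pass (exact permutation test, adjusted p = 0.140). It is the only fine cluster of Neural 4. With the same shares, Neural 4 passed among the 13 broad clusters (exact permutation test, adjusted p = 0.0368). That call was lost in 7 of 14 repeats that left out 1 dissociation. The Gastrodermis cluster 3 averaged 4.70% ± 3.90 in FoxL2 and 8.62% ± 5.04 in SoxC (SD, exact permutation test, adjusted p = 0.253).

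Gastrodermis as a whole gave no fine cluster past the test. Its cluster 2 took nearly equal shares, 6.17% ± 1.14 in FoxL2 and 6.34% ± 3.07 in SoxC (SD, exact permutation test, adjusted p = 0.912), with a difference of -0.171 ± 1.14 points (SE). Parietal muscle, the longitudinal muscle at the base of the mesenteries, took 2.24% ± 2.17 in FoxL2 and 2.85% ± 3.58 in SoxC. Developing cnidocytes, which form the stinging capsules, took 2.09% ± 1.02 in FoxL2 and 4.95% ± 2.89 in SoxC (SD, exact permutation test, adjusted p = 0.110).

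The sign of the difference was the same on days 2, 4 and 7 for all 13 clusters past the threshold, with 1 dissociation of each line on day 2. The same dissociations gave the 13 clusters, so this is no separate evidence. Clusters that did not pass, among them Neural 1 clusters 4 and 5 and developing cnidocytes, also kept their sign on all 3 days. Of the 13 clusters, 7 were past the threshold in every repeat that left out 1 dissociation, namely Epidermis, clusters 13, 27, 29 and 33 among the neural ones, WFSa and the mucous cluster 41. All 7 were past it without SB34 as well, where 12 of 45 passed, 11 of them shared with the full set. The count fell to 7 without FoxL2 dissociation 15, to 8 without FoxL2 dissociation 14 and to 8 without SoxC dissociation 8.

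Shares sum to the whole, so the large epidermal share in FoxL2 lowers every other FoxL2 share. With epidermal cells set aside, 13 of the other 44 clusters passed the same test, among them 11 of the 12 that had passed before. Cluster 23 did not (adjusted p = 0.137, exact permutation test). The ilp7 cluster of Neural 2 and the RPa cluster 20 passed in addition. Among non-epidermal cells ilp7 took 1.80% ± 0.542 in FoxL2 and 0.738% ± 0.652 in SoxC, and cluster 20 took 1.59% ± 0.987 in FoxL2 and 0.546% ± 0.357 in SoxC (SD, exact permutation test, adjusted p = 0.0380 and 0.0456). In FoxL2, ilp7 had 14 of 665 SB34 cells and 19 of 1613 other cells, and cluster 20 had 12 of 665 and 15 of 1613. In SoxC, ilp7 had 7 of 554 and 7 of 1437, and cluster 20 had 1 of 554 and 8 of 1437. The 11 include RPa cluster 10, which did not pass over all cells without SB34. Setting aside epidermal cells and SB34 libraries together was not tested.

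The second comparison set each fine cluster against the cells of its own broad cluster, so that cells of other broad clusters do not enter the share. A dissociation entered with at least 10 cells of the broad cluster. By the same exact permutation test 0 of 36 clusters passed (0%), 7 (19.4%) were under 0.05 before adjustment, and in 3 (8.33%) the lines did not overlap. Those 3 also had the smallest p, and all 3 were neural. With at least 5 cells, 3 clusters passed.

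Of these, 2 were clusters of Neural 2. The WFSa cluster made up 15.8%, 31.2%, 23.1% and 18.8% of Neural 2 cells in FoxL2 dissociations 14, 15, 16 and 17, which held 16 to 26 such cells each. In the 6 SoxC dissociations with enough cells it made up 51.6% at lowest, 69.2% at the median and 81.0% at highest. Cluster 29 made up 15.8%, 18.8%, 23.1% and 31.2% in FoxL2, against 0%, 2.94% and 9.52% at the lowest, median and highest in SoxC. All 4 FoxL2 values lay apart from all SoxC values in both clusters. The means were 22.2% ± 6.72 in FoxL2 and 68.4% ± 9.99 in SoxC for WFSa, and 22.2% ± 6.72 in FoxL2 and 3.64% ± 4.18 in SoxC for cluster 29 (SD, n = 4 and 6, exact permutation test, adjusted p = 0.0571 for each).

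The FoxL2 values of these clusters rest on 3, 5, 6 and 3 cells of WFSa and 3, 3, 6 and 5 cells of cluster 29, which gives equal means. The SE of the WFSa difference was 5.29 points on a difference of -46.2 points. Both clusters had p = 0.00476, the smallest that the 210 arrangements of this exact permutation test can give. With the p values of the other clusters as they were, neither could pass after adjustment, even with the lines fully apart. The lack of a pass therefore does not show equal shares. Without SB34 the WFSa difference was -40.3 points and that of cluster 29 was 7.72 points in place of 18.6 (exact permutation test, adjusted p = 0.129 and 0.471).

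Neural 3 held 2 fine clusters, Insm/FoxQ2d and PaxC, of which the larger was tested. Insm/FoxQ2d made up 66.7%, 44.4%, 60.0% and 25.0% of Neural 3 cells in FoxL2 dissociations 14, 15, 16 and 17. In the 7 SoxC dissociations with enough cells it made up 70.6% at lowest, 73.3% at the median and 85.7% at highest. No FoxL2 value reached the SoxC range. The means were 49.0% ± 18.5 in FoxL2 and 76.4% ± 6.25 in SoxC (SD, n = 4 and 7, exact permutation test, adjusted p = 0.0571). Insm encodes a zinc finger transcription factor and FoxQ2d a forkhead factor.

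**Figure D4:**
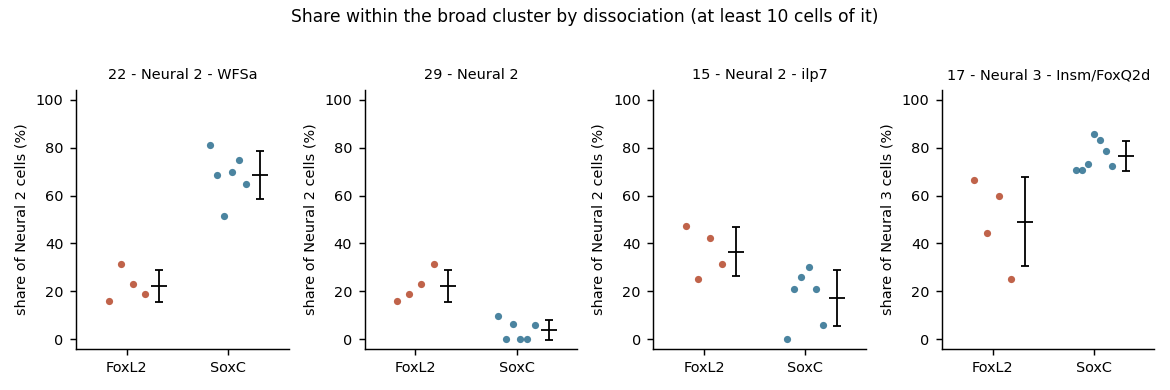
Share within the broad cluster (%, vertical axis) of 3 Neural 2 clusters and of the Insm/FoxQ2d cluster of Neural 3, for dissociations with at least 10 cells of the broad cluster. Points are dissociations, FoxL2 at left (n = 4) and SoxC at right (n = 6, and 7 in the last panel), with the mean and SD in black. WFSa lies at 15.8% to 31.2% in FoxL2 and at 51.6% to 81.0% in SoxC.

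Of the 13 clusters past the threshold over all cells, 8 could be tested within their broad cluster, and 0 of them passed there. The sign was the same in 7 and turned in cluster 23. Both shares count the same cells of a cluster, so equal signs are no separate evidence. Within Neural 1, cluster 33 made up 4.45% ± 1.21 in FoxL2 and 0.990% ± 2.09 in SoxC, and cluster 24 made up 7.73% ± 3.92 in FoxL2 and 3.80% ± 1.72 in SoxC (SD, exact permutation test, adjusted p = 0.108 for each). With at least 5 mucous cells in place of 10, mucous cells could be tested, and cluster 9 made up 92.3% ± 8.39 of them in FoxL2 and 67.8% ± 10.3 in SoxC (SD, n = 5 and 9, exact permutation test, adjusted p = 0.0246). Cluster 41 was the remainder.

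The colour class of the reporter was not used to choose cells from the table. The KikGR+ gate is named for the same reporter and its thresholds are not given, so colour may depend on the sorting. Per the labels, animals had been photoconverted, and the table classes cells as green, orange or red by a rule not given in the sources used here. Of the coloured cells of a dissociation, 10.6% ± 7.21 were green in FoxL2 and 40.2% ± 11.8 in SoxC, and 65.1% ± 6.20 were orange in FoxL2 and 31.3% ± 5.81 in SoxC (SD, n = 5 and 9, exact permutation test, p = 0.000999 and 0.0004995). Red cells took 24.2% ± 8.81 in FoxL2 and 28.5% ± 11.4 in SoxC (exact permutation test, p = 0.476).

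The green share was lower in FoxL2 in all 7 clusters that passed among 25 tested (28% of those tested, exact permutation test with Benjamini-Hochberg adjustment, at least 5 coloured cells of the cluster in a dissociation). In 5 clusters (20%) the lines did not overlap, 1 of them the SB34 cluster 30, which did not pass, and 9 (36%) were under 0.05 before adjustment. The 7 covered progenitors, gastrodermis, muscle, cnidocytes and secretory cells. Over all coloured cells the green share differed by -29.5 points, FoxL2 minus SoxC. Progenitors were green at 4.76%, 0%, 18.2%, 5.26% and 28.6% in FoxL2 dissociations 11, 14, 15, 16 and 17. Their lowest, median and highest green shares in SoxC were 46.2%, 69.0% and 100%, with no overlap. The means were 11.4% ± 11.8 in FoxL2 and 68.4% ± 17.1 in SoxC (SD, n = 5 and 8, exact permutation test, adjusted p = 0.00971).

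Developing cnidocytes had 0, 0, 0 and 1 green cells of 8, 10, 8 and 15 in FoxL2 dissociations 11, 14, 16 and 17. In SoxC their lowest, median and highest green shares were 37.0%, 54.5% and 89.7%. The lines did not overlap, with means of 1.67% ± 3.33 in FoxL2 and 58.8% ± 18.3 in SoxC (SD, n = 4 and 9, exact permutation test, adjusted p = 0.0117). Gastrodermis cluster 2, whose share of all cells was nearly equal in the lines, was green at 13.3%, 8.82%, 40.0%, 17.1% and 42.4% in the 5 FoxL2 dissociations and at 53.3% to 81.4% in SoxC. Its means were 24.3% ± 15.7 in FoxL2 and 67.3% ± 9.36 in SoxC (SD, n = 5 and 8, exact permutation test, adjusted p = 0.00971).

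Parietal muscle was green at 31.2%, 41.4% and 50.0% in the 3 FoxL2 dissociations with enough cells and at 57.1% to 100% in 7 SoxC dissociations. The means were 40.9% ± 9.39 in FoxL2 and 85.5% ± 14.4 in SoxC (SD, exact permutation test, adjusted p = 0.0417). Of the secretory clusters, trypsinA/B was green at 8.28% ± 9.38 in FoxL2 and 42.1% ± 17.4 in SoxC, trypsin cluster 7 at 15.7% ± 7.50 in FoxL2 and 38.7% ± 16.4 in SoxC, and ilp2/3 at 12.9% ± 8.40 in FoxL2 and 37.3% ± 15.6 in SoxC (SD, exact permutation test, adjusted p = 0.0187, 0.0446 and 0.0446). In these 3 the ranges of the lines overlapped. The calls of trypsin cluster 7 and of ilp2/3 were lost in 6 and 8 of 14 repeats that left out 1 dissociation. That of parietal muscle was lost in 1 of the 11 such repeats in which it was tested. Under other settings the call was lost in 2 of 3 for parietal muscle, 2 of 4 for trypsin cluster 7 and 2 of 3 for ilp2/3. The count of 7 fell to 4 without SoxC dissociation 6 and to 4 without FoxL2 dissociation 16.

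**Figure D5:**
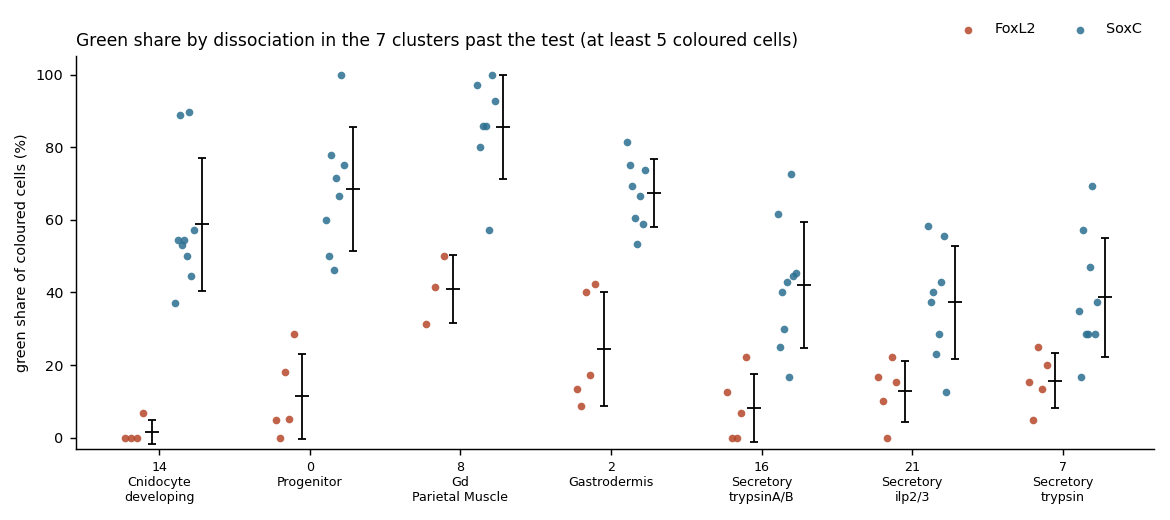
Green share of the coloured cells (%, vertical axis) in the 7 clusters past the test, for dissociations with at least 5 coloured cells of the cluster. Points are dissociations, FoxL2 at left and SoxC at right of each pair, with the mean and SD in black. Developing cnidocytes lie at 0% to 6.67% in FoxL2 and at 37.0% to 89.7% in SoxC.

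Neural clusters gave 0 passes among the 9 tested for the green share, with 0 under 0.05 before adjustment. Some of these tests had few arrangements, 20 for Class8-like and 56 for clusters 13 and 18. Anoctamin8 of Neural 4 was green at 19.9% ± 16.5 in FoxL2 and 14.7% ± 18.3 in SoxC (SD, exact permutation test, adjusted p = 0.618). Only Anoctamin8 and cluster 13 (4.04% in FoxL2 and 0% in SoxC) had a higher mean in FoxL2. The other neural clusters had a lower one, as in the clusters that passed. Cluster 4 was green at 5.00% in FoxL2 and 18.2% in SoxC, and Insm/FoxQ2d at 12.3% in FoxL2 and 26.2% in SoxC. Epidermal cells were green at 3.16% ± 5.22 in FoxL2 and 19.5% ± 26.6 in SoxC (SD, n = 5 each, exact permutation test, adjusted p = 0.397).

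The cluster shares were also taken within colour classes. Among orange and red cells 11 of 45 clusters passed the exact permutation test, 8 of them shared with the 13 over all cells. Epidermis took 24.0% ± 9.62 of these cells in FoxL2 and 4.69% ± 5.40 in SoxC, and Anoctamin8 took 2.76% ± 1.99 in FoxL2 and 10.2% ± 3.68 in SoxC (SD, n = 5 and 9, exact permutation test, adjusted p = 0.0225 for each). Among green cells, where only 3 FoxL2 dissociations had at least 30 cells, 0 of 45 passed and 7 were under 0.05 before adjustment. Over all 5 FoxL2 dissociations, which held 19 to 94 green cells each, 0 of 45 passed as well and 5 were under 0.05 before adjustment. Of the green cells, 15 of 234 in FoxL2 (6.41%) and 73 of 1316 in SoxC (5.55%) were in Neural 1. Without FoxL2 dissociations 11 and 14, which had the fewest green cells, it was 6 of 194 in FoxL2 (3.09%), so the order of the lines turned with them. Of the orange and red cells, 453 of 2036 in FoxL2 (22.2%) and 309 of 2057 in SoxC (15.0%) were in Neural 1. These Neural 1 percentages pool the cells of a line, so that dissociations with more cells weigh more, and they were not tested.

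The last comparison asked how many fine clusters each line reached at equal cell number. Each line held cells of all 45 clusters. Thinned to 245 cells, a FoxL2 dissociation held 40.3 ± 2.39 clusters and a SoxC dissociation 36.9 ± 2.02 (SD, n = 5 and 9), a difference of 3.35 (two-sided exact permutation test, p = 0.0200). Without the SB34 libraries, at 155 cells, the difference was 2.18 (p = 0.0914, exact permutation test), and without FoxL2 dissociation 14 it was 2.86 (p = 0.0503, exact permutation test). The effective number of clusters, which weights them by abundance, was 24.1 ± 4.95 in FoxL2 and 25.4 ± 2.65 in SoxC (exact permutation test, p = 0.533). As a description, the Bray-Curtis dissimilarity of cluster shares, which is 0% for equal and 100% for disjoint compositions, had a median of 45.5% between a FoxL2 and a SoxC dissociation, 28.4% between FoxL2 dissociations and 33.3% between SoxC dissociations.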

How the data were processed

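The authors deposited a table with 1 line per cell, which names the library, the gate, the fine and broad cluster and the colour class of the reporter, and well lists with the demultiplexing pool of each library. Reads were processed with STARsolo (STAR 2.7.10b), per the submitters' processing notes. Cell filters, doublet removal, clustering settings and sorting thresholds are not given in the sources used here. Labels and table differed in 0 cells, 0 wells and 0 barcodes of a pool were listed in duplicate, and 6 of the 41 libraries had no well list and were counted with the libraries outside SB34. In the same dissociations 657 cells of another gate were left out.

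Shares were computed per dissociation with pandas 2.3.3. FoxL2 minus SoxC was tested with two-sided exact permutation tests over all arrangements of the line labels, with Benjamini-Hochberg adjustment within each comparison (threshold 0.05). The procedure was tested on simulated data. A broad cluster with exactly 2 fine clusters gave 1 test. Comparisons needed at least 3 dissociations of each line. Intervals and limits for counts of 0 (3 counts of the total) cover counting error only.

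Clusters named over all cells were the 12 with the largest differences past the threshold, any others past it, and the 3 largest not past it. In the other comparisons they were all past it, or the 3 with the smallest p. Others were named after their values were seen. The cells and tests were chosen with earlier results of these data known. Alternatives are given at the end, and leaving out the SB34 libraries or day 2, and taking green cells with no minimum number, were added after seeing the data.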

Additional observations from a re-analysis of the deposited data

Results flagged for a closer look

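In SoxC dissociation 6, Epidermis took 10.4% of the cells, far above the other 8 SoxC dissociations, which ran from 0.647% to 4.25%. In SoxC dissociation 8, the mucous cluster 41 took 5.22%, with the other 8 between 0.977% and 2.95%. In FoxL2 dissociation 17, 6.67% of the developing cnidocytes were green (1 of 15 cells), with 0% in the other 3 FoxL2 dissociations. The Epidermis and cluster 41 values stood out as samples far from the others of their line. For the cnidocytes the other 3 values were 0%, so any value above 0% in dissociation 17 would have been flagged. Its 95% interval for counting error was 1.19% to 29.8%, and the intervals of the other 3 reached up to 27.8% or 32.4%. In all, 53 groups of values were examined for such samples and 3 were flagged, and chance alone gives about 1 in 20.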

How the results depend on the processing

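Over all cells 13 of 45 clusters passed. Under other settings the count among the 45 was 8 when labels were permuted within day, 24 when KikGR+ cells of FoxL2 dissociations not listed with DMSO were added, and 0 within pool SB34, 0 within pool SB40 and 0 among green cells of dissociations with at least 30 (exact permutation tests, with 7, 12 and 7 under 0.05 before adjustment). These last 3 had few arrangements of the labels, 126, 126 and 220. Leaving out 1 dissociation gave 7 to 15. Within pool SB34 the difference of cluster 43 reversed to -0.0548 points. Among green cells of the 3 FoxL2 and 9 SoxC dissociations with at least 30, the differences reversed for Gastrodermis cluster 3 (4.06 points), Anoctamin8 (2.48), RPa cluster 10 (-0.404), Prdm14d (-0.270) and the Neural 1 clusters 13 (-0.0144), 24 (-0.369), 33 (-0.0342) and 43 (-0.0342). The last 6 rest on 0 or 1 green FoxL2 cells. With all dissociations 0 of 45 passed (5 under 0.05 before adjustment, exact permutation test), and clusters 10 (2.41), 13 (0.796) and 3 (-1.56) had their first sign again. Anoctamin8 (1.66) and the Progenitors (-0.499) were reversed, and clusters 24, 27, 33 and 43, with 0 green FoxL2 cells, stayed as given. The causes were not tested. Logit shares, centred log ratios, equal weight per plate and leaving out the largest cluster kept the count within 1.5 times. Within broad clusters, 0 passed at first, 4 with all gates, 5 with the added FoxL2 dissociations, 3 with at least 5 cells, and 0 to 1 without 1 dissociation (1 without SoxC 1, 1 without FoxL2 17). For broad clusters 6 passed, and 4 to 8 without 1 dissociation. For the green share 7 passed, 4 when permuted within day, 4 with at least 10 coloured cells (where 7 were testable), 4 on days 4 and 7 alone, 2 for the red share, and 4 to 9 without 1 dissociation. The number of clusters differed by 3.35, by 2.86 to 4.37 without 1 dissociation, and by 2.18 without SB34, and the effective number reversed to -1.28. No paired analysis was possible because the lines share no dissociation number. Shares under 1.22% rest on few cells and could be missed at this depth.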
